A study of Mus musculus with 11 samples.

Results

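Axon guidance ligands and receptors were followed in the adrenal glands of castrated and intact male mice by RNA sequencing. The genes were rows of the count table chosen by symbol, with at least 10 counts in at least 5 of the 11 libraries. The symbols named the semaphorins of classes 3 to 7, plexins, neuropilins, netrins, Unc5 receptors, Slits, Robo receptors other than Robo4, Eph receptors and ephrins. The table held 23337 genes, of which 69 matched by name and 62 met the count minimum. Of the 62, Unc50 shares only the first letters of its symbol with the netrin receptors and is not a guidance gene, which leaves 61 guidance genes, 32 ligands and 29 receptors. Unc50, which encodes a Golgi protein, did not pass the test described below (log2 0.41 ± 0.23; edgeR, adjusted p = 0.316). The rule used no difference between the groups.

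The ORX group comprised 6 samples labelled as orchectomized, that is with the testes removed, and the intact group 5 samples from males that kept their testes. All animals were Hsd:Athymic Nude-Foxn1nu males, a strain without a thymus and therefore short of T cells. All had received VCaP cells, a human prostate cancer line, at study week 0 when about 5 to 6 weeks old. They were assigned to the groups at week 7, and the adrenals were taken at week 15. Both groups thus carried tumour cells, and an effect of the tumour that differs between the groups cannot be told apart from the effect of castration. The labels do not say that each sample is a separate mouse, so the p-values below rest on sample-to-sample spread that could be technical in part.

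Guidance molecules were named for steering growing axons, and the same ligand and receptor pairs guide blood vessels, migrating cells and tissue boundaries. Secreted class 3 semaphorins act through neuropilins joined to A-type plexins or, for some members, directly on plexins, whereas most membrane-bound semaphorins bind plexins alone. Slits bind Robo receptors, netrins bind Unc5 receptors and the receptor Dcc, and ephrins, which are tethered to the cell surface, bind Eph receptor tyrosine kinases on neighbouring cells. In the adrenal these families can be made by cortical cells, by the chromaffin cells and nerve fibres of the medulla, by endothelium and by the capsule. A bulk gland does not separate these sources, so that fewer cells of a type and less RNA per cell cannot be told apart.

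Total counts ranged from 12539860 to 14725251 in ORX libraries and from 11368447 to 15029582 in intact libraries. The tissue label matched the markers of the gland. The 9 genes listed for the zona fasciculata, the glucocorticoid-producing cortex, summed to between 57888 and 88349 CPM (counts scaled to a common TMM-adjusted library size, the usual CPM unit) in ORX libraries and between 30286 and 74020 CPM in intact libraries. Markers of kidney, the neighbouring organ, summed to at most 2.44 CPM in ORX libraries and 1.06 CPM in intact libraries, with Umod and Nphs1 at 0 in every library. ORX 6 stood apart in that long transcripts were low and short ones high: its median deviation from the ORX mean was -0.56 (log2 CPM) for the 10% of genes with the longest transcripts and 0.61 for the 10% with the shortest. Guidance genes are long, with a median longest transcript of 5019 bases for the 62 genes of the rule against 3420 bases for all tested genes, and their median deviation in ORX 6 was -0.24.

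Castration was accompanied by a change in 8 of the 61 guidance genes: 2 rose and 6 fell (adjusted p under 0.05 over all 14139 tested genes by the quasi-likelihood test of edgeR). Ephb6, a receptor of the EphB family whose kinase domain is catalytically inactive, rose 3.796-fold, and Slit2, a secreted Robo ligand, rose 2.78-fold. The semaphorin genes Sema5b and Sema3g fell, as did the plexin gene Plxna3, the receptor genes Ephb2 and Unc5b, and Slit3. Of all tested genes 6.21% were called, 3.03% as higher and 3.18% as lower. Among the 62 genes of the rule 12.9% were called, 3.23% as higher and 9.68% as lower. All 62 passed the filter on low counts. The members and all other genes are set side by side here only as a description. Libraries of the 2 groups did not overlap in CPM for 6 of the 62, against 5.28% of all tested genes. The 6 were Ephb6, higher in ORX (2.92% of all tested genes were apart in that direction), and Sema5b, Sema3g, Plxna3, Sema6d and Nrp2, lower in ORX (2.36% of all tested genes). The log2 fold change was below 0 for 41 of the 61 guidance genes, with a median of -0.22, against 48.7% of all tested genes and a median of 0.01.

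The balance of this set depended on the fit, and the part of transcript length in it was not tested. With a length trend removed from each library, 34 of the 61 log2 fold changes were below 0 with a median of -0.11, and the calls were 3 higher and 5 lower. Over all genes that fit called 500 as higher and 459 as lower, with 47.97% below 0. Plxna3, Ephb2 and Unc5b were then no longer called, and Plxnb1, Sema6d and Sema7a were. Without ORX 6, 38 of 61 were below 0, against 50.67% of all tested genes, and 7 genes of the rule were called, 6 of them among the 8. The number of genes of the rule called was 5 without ORX 1, 4 without ORX 2, 4 without ORX 5, 5 without intact 1 and 3 without intact 5. Over all genes 505, 434, 447, 483 and 408 were called in those same fits, against 878 with every library, so the fall in calls was not limited to guidance genes. The other fits with 1 library left out called between 6 and 11 genes of the rule, with 11 without ORX 3 (1280 over all genes) and 10 without intact 3 (1111 over all genes). Ephb6 and Sema5b were called in each of the 21 alternative fits, and Slit2 in all but the fit without intact 5.

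**Figure D1:**
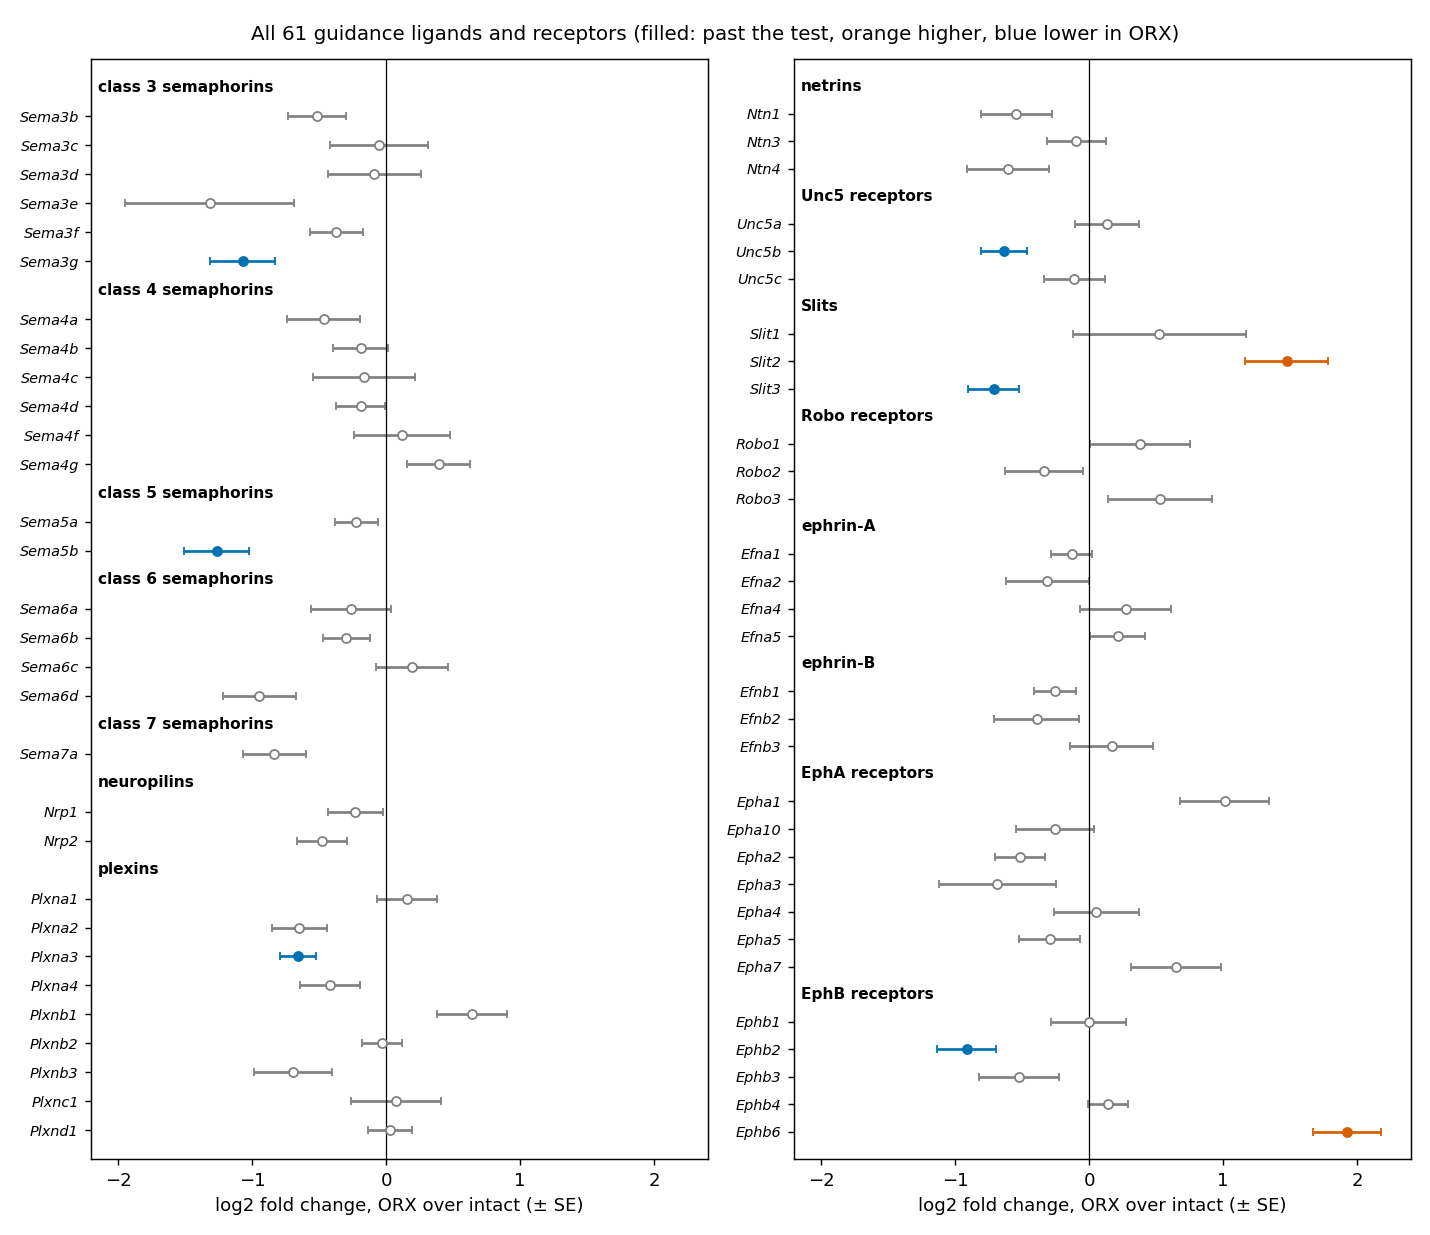
Fold changes of the 61 guidance genes by family on a log2 horizontal axis, ORX over intact, drawn as circles with standard errors as bars. Filled circles passed the test (orange higher, blue lower in ORX), and the largest called values are 1.92 for Ephb6 and -1.27 for Sema5b.

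Sequence just upstream of the start is shown for the 2 genes that rose and for 2 genes that fell without overlap of the groups, to set the promoters of genes that moved in opposite directions side by side. RefSeq (build GRCm38.p6) gave a window for 54 of the 62 genes. The 250 bases before the RefSeq start are printed for genes whose RefSeq and GENCODE starts lie within 30 bases of each other, 5′ to 3′ on the gene's strand, which is the plus strand in all 4. Capitals mark the GC box GGGCGG (or its reverse complement CCGCCC) and the TATA box TATAAA (or TTTATA).
Ephb6, chr6:41605261-41605510: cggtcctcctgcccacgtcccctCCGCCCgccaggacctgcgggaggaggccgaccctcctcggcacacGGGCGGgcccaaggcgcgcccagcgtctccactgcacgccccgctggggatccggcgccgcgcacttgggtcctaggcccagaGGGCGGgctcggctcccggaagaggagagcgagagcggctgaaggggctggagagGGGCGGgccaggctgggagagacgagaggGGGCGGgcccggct
Slit2, chr5:47982905-47983154: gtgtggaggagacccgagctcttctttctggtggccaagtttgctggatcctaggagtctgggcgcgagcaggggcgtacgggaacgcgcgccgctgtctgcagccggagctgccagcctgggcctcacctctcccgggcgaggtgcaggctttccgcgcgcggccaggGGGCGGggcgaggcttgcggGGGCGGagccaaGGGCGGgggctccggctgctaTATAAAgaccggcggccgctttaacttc
Plxna3, chrX:74328816-74329065: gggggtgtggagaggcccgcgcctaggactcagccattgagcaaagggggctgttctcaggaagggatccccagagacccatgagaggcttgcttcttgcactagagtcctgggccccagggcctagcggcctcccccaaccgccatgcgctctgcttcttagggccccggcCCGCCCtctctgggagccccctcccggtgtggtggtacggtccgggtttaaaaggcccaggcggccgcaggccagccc
Sema3g, chr14:31217623-31217872: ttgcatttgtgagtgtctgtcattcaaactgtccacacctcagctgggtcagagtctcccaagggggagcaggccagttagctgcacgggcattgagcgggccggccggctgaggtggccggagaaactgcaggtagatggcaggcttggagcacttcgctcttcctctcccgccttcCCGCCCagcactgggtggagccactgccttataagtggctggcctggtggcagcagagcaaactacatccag
Ephb6 held 5 GC boxes and no TATA box, and Slit2 held 3 GC boxes and 1 TATA box. Plxna3 and Sema3g held 1 GC box each. Of the other genes that fell, Unc5b held 2 GC boxes and Ephb2 none. Slit3 held 6 and Sema5b none, but their RefSeq starts lie 232 and 217 bases from the GENCODE starts, outside the limit of 30. Most of these windows thus lies inside the GENCODE gene. With Slit3 counted, the number of GC boxes did not separate the genes that rose from those that fell. Without Slit3 and Sema5b, both genes that rose held more than each gene that fell. The genes are few, and this difference was not tested. Of all 32851 RefSeq windows, not limited to tested genes, 32.7% held a GC box on either strand. Of the 69 windows of the genes of the rule 72.5% did. A TATA box stood in 12.4% of all windows and in 2.90% of those of the set. The windows of the set were rich in G and C (median 64.4%, against 52.4% over all windows), so that G-rich and C-rich motifs are frequent in them by composition. The motif AGGTCA, to which nuclear receptors such as the adrenal factor Nr5a1 bind, was in 13.0% of the windows of the set and 14.02% of all windows, and in none of those of the 8 called genes. The motif TGTTCT, shared by androgen and glucocorticoid receptors, was in 10.1% of the windows of the set and 16.1% of all windows, and among the called genes stood once, in Plxna3. These are matches of letters in a short window and say nothing of binding.

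Among the semaphorins, the largest ligand family of the set with 19 genes, 2 fell, none rose and 17 did not pass. Sema5b, a transmembrane semaphorin with thrombospondin repeats (chromosome 16, 35541145 to 35664732, GRCm38), had 26.7 CPM in the lowest ORX library, ORX 1, a median of 39.2 and 49.5 in the highest, ORX 4, against 52.6, 71.4, 124, 132 and 89.4 CPM in intact 1 to 5. Every ORX library lay below every intact library, with intact 3 and 4 highest. The mean was 39.0 ± 9.18 CPM in ORX (SD, n = 6) and 93.8 ± 33.8 CPM in intact (SD, n = 5). Sema5b fell by 1.27 on the log2 scale, with an SE of 0.24 (edgeR, adjusted p = 0.00831). Sema5a, its relative of the same class, was at -0.22 ± 0.16 (edgeR, adjusted p = 0.437).

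Sema3g, a secreted class 3 semaphorin best known from arterial endothelium and a ligand of neuropilin 2 (chromosome 14, 31217860 to 31230352), had 5.96 CPM in ORX 6, a median of 10.1 and 17.8 in ORX 3, against 18.9, 20.5, 25.8, 24.3 and 28.9 CPM in intact 1 to 5. The groups did not overlap, although ORX 3 and intact 1 lay close. Sema3g fell by 1.07 ± 0.25 on the log2 scale (edgeR, adjusted p = 0.0227). The call ended without ORX 2, ORX 5 or intact 5 (edgeR, adjusted p 0.0557 to 0.0662). Of the other class 3 genes, Sema3f, a repellent that acts through neuropilin 2, averaged 48.7 ± 7.92 CPM in ORX and 63.0 ± 20.3 CPM in intact, and Sema3b, which lies 72.3 kb from it on chromosome 9, averaged 7.38 ± 1.91 and 10.5 ± 2.16 CPM. Neither passed (edgeR, adjusted p = 0.287 and 0.172). Sema3c and Sema3d were at log2 -0.05 and -0.09. All 6 class 3 genes were below 0 in this fit, but 4 of 6 were with the length trend removed or without ORX 6. The genes that crossed 0 were Sema3c and Sema3d. The class 3 median was -0.44 in this fit, -0.45 with the length trend removed and -0.49 without ORX 6.

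Sema7a and Sema6d came nearest to the threshold. Sema7a, a semaphorin held to the membrane by a lipid anchor and acting through integrins and plexin C1, had 31.4 CPM in ORX 2, a median of 39.96 and 44.8 in ORX 5, against 79.2, 110, 36.4, 47.4 and 74.0 CPM in intact 1 to 5. Intact 3 lay inside the ORX range and the other intact libraries above it (log2 -0.83 ± 0.23; edgeR, adjusted p = 0.0524). Sema6d, a transmembrane ligand of plexin A1, had 7.39 CPM in ORX 6, a median of 19.5 and 28.4 in ORX 3, against 37.3, 53.8, 36.2, 29.4 and 30.8 CPM in intact. The groups did not overlap, and the fold change was log2 -0.95 ± 0.27 (edgeR, adjusted p = 0.058). Sema4b, which was the most abundant semaphorin per kilobase of transcript, averaged 90.1 ± 8.37 CPM in ORX and 103 ± 41.2 CPM in intact (edgeR, adjusted p = 0.626), with 172 CPM in intact 2. Summed over the 19 genes, the semaphorin level per kilobase was 99.1 to 115 CPM per kilobase in ORX libraries and 129 to 173 in intact libraries, without overlap. The totals of all other families overlapped between the groups. Netrins, for instance, had 5.61 to 12.8 CPM per kilobase in ORX libraries and 11.2 to 18.3 in intact libraries. The length trend was not removed from these sums. Of the 19 semaphorins 16 had a log2 fold change below 0 (median -0.26). With the length trend removed 13 were below 0 (median -0.16), and 14 were without ORX 6 (median -0.18). Sema5b and Sema7a differed most in mean level per kilobase. Sema5b averaged 8.4 in ORX and 20.2 in intact, and Sema7a 11.8 and 21.03. The semaphorin sum is a description of the same values and was not tested.

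**Figure D2:**
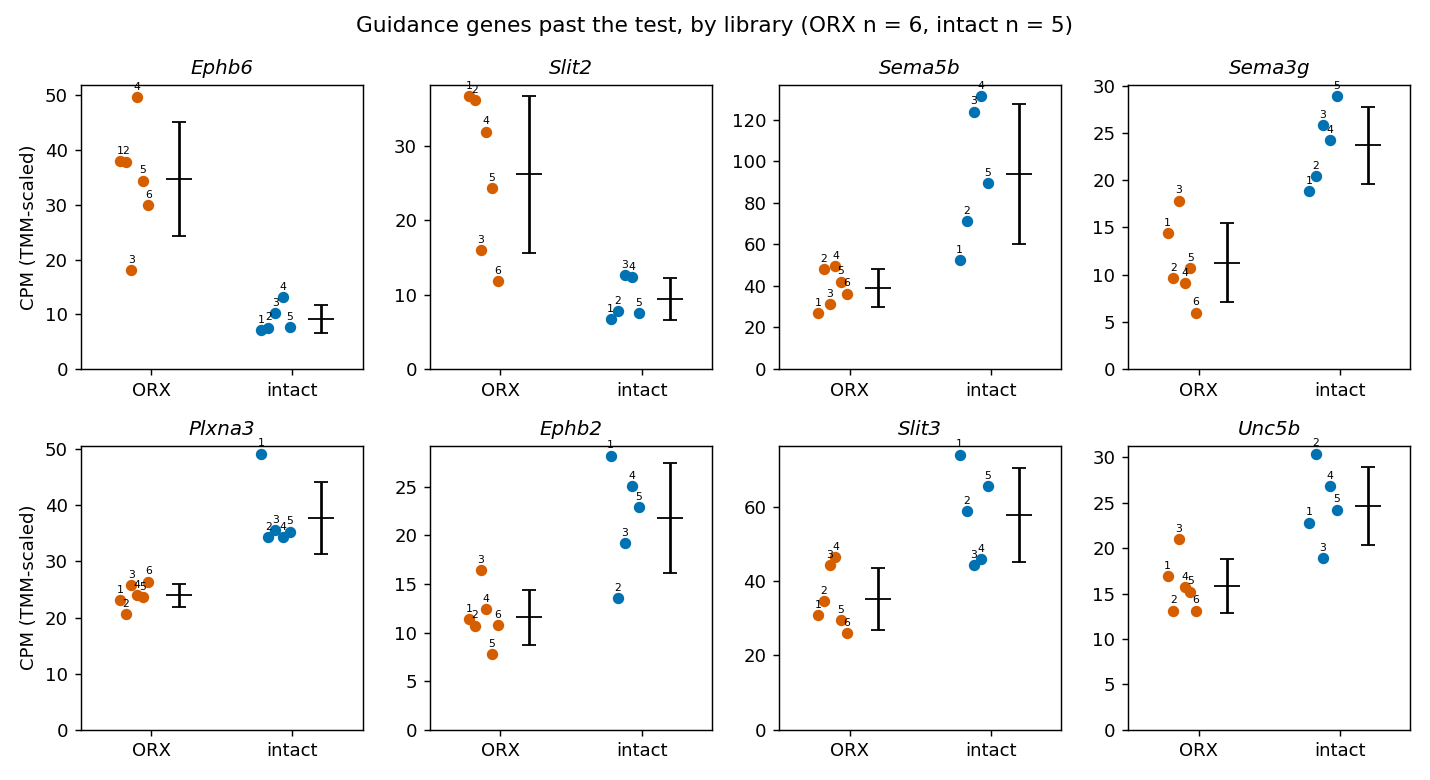
CPM of the 8 guidance genes past the test (vertical axes, each from 0) in every library, numbered as in the labels, for ORX (orange, n = 6) and intact (blue, n = 5), with the mean and SD as a black bar. Ephb6 separates the groups upwards and Sema5b, Sema3g and Plxna3 downwards, while ORX 6 of Slit2 lies among the intact libraries.

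Of the receptors that semaphorins use, 1 of 9 plexin genes fell and neither neuropilin passed. Plxna3, which pairs with neuropilins to receive class 3 semaphorins (chromosome X, 74329066 to 74344689), had 20.6 CPM in ORX 2, a median of 23.9 and 26.4 in ORX 6, against 49.2, 34.3, 35.6, 34.4 and 35.3 CPM in intact 1 to 5. The groups did not overlap, and apart from intact 1 each group was narrow. Plxna3 fell by 0.66 ± 0.14 on the log2 scale (edgeR, adjusted p = 0.0134), and with the length trend removed it was at -0.40 (edgeR, adjusted p = 0.229). Plxna2, a close relative, averaged 23.6 ± 7.71 CPM in ORX and 36.9 ± 4.27 CPM in intact, at log2 -0.65 ± 0.21 (edgeR, adjusted p = 0.0797), with ORX 3 at 36.3 CPM inside the intact range. Nrp2 had 37.3 to 77.1 CPM in ORX libraries and 77.6 to 110 CPM in intact libraries (log2 -0.48 ± 0.19; edgeR, adjusted p = 0.146). Nrp1 averaged 130 ± 38.0 CPM in ORX and 152 ± 11.2 CPM in intact (edgeR, adjusted p = 0.537), with ORX 6 lowest at 64.0 CPM.

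The most abundant plexins did not differ beyond their error. Plxnd1, the endothelial receptor of class 3 semaphorins and per kilobase the most abundant gene of the set, averaged 285 ± 47.2 CPM in ORX and 280 ± 50.4 CPM in intact. Plxnb2 averaged 216 ± 30.4 CPM in ORX and 221 ± 34.0 CPM in intact. Their log2 fold changes, 0.03 ± 0.16 and -0.03 ± 0.15, were within 1 standard error of 0 (edgeR, adjusted p = 0.942 and 0.931). Plxnb1, a receptor of Sema4d that was picked out after its values were seen and whose exons overlap Gm7628 on the other strand, had 153 CPM in ORX 3, a median of 264 and 450 in ORX 1, against 160, 151, 172, 206 and 188 CPM in intact 1 to 5. ORX 1, 2, 4 and 5 lay above every intact library, and ORX 3 and 6 within the intact range (log2 0.64 ± 0.26; edgeR, adjusted p = 0.158). It passed with the length trend removed (log2 0.91; edgeR, adjusted p = 0.0266).

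The Slit genes moved in opposite directions. Slit2 (chromosome 5, 47983138 to 48307733) had 11.8 CPM in ORX 6, a median of 28.1 and 36.6 in ORX 1, against 6.71, 7.82, 12.7, 12.3 and 7.503 CPM in intact 1 to 5. ORX 1 to 5 lay above every intact library, and ORX 6 between intact values. The mean was 26.1 ± 10.5 CPM in ORX and 9.40 ± 2.84 CPM in intact, a log2 fold change of 1.48 ± 0.31 (edgeR, adjusted p = 0.0145). Without intact 5 it was 1.40 (edgeR, adjusted p = 0.0501), and without ORX 6 it was 1.63 (edgeR, adjusted p = 0.00442).

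Slit3, the most abundant Slit of the gland (chromosome 11, 35121224 to 35708507), had 25.9 CPM in ORX 6, a median of 32.7 and 46.4 in ORX 4, against 74.1, 59.0, 44.4, 45.9 and 65.6 CPM in intact. ORX 4 lay above intact 3 and 4, and the remaining ORX libraries lay below every intact library. Slit3 fell by 0.71 ± 0.19 on the log2 scale (edgeR, adjusted p = 0.0414). The call ended without any 1 of ORX 1, 2, 5 and 6 and intact 1, 2 and 5 (edgeR, adjusted p 0.0592 to 0.113). Slit1 was low and scattered, with 1.99 to 9.82 CPM in ORX libraries and 0.340 to 9.62 CPM in intact libraries (edgeR, adjusted p = 0.674). As shares of the Slit level per kilobase, Slit2 made up 15.4% to 36.3% in ORX libraries and 4.21% to 12.3% in intact libraries, and Slit3 58.2% to 81.2% in ORX libraries and 82.6% to 93.0% in intact libraries.

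No Robo receptor passed. Of the summed level of Robo1, Robo2 and Robo3 per kilobase, Robo1 carried at least 94.2% in each ORX library and 91.7% in each intact library. Robo1 had 76.3 to 334 CPM in ORX libraries and 69.7 to 286 CPM in intact libraries, at log2 0.38 ± 0.38 (edgeR, adjusted p = 0.59). Robo4, which the name rule left out and these shares do not hold, averaged 39.3 ± 3.59 CPM in ORX and 46.0 ± 7.37 CPM in intact (edgeR, adjusted p = 0.341). Its longest transcript has 4952 bases, against 7563 for Robo1. Robo2 averaged 4.18 ± 1.72 CPM in ORX and 5.28 ± 0.934 CPM in intact (edgeR, adjusted p = 0.53). The spread of Robo1 within a group was large, with a coefficient of variation of 39.98% in ORX and 49.7% in intact, against medians of 25.9% and 27.9% over the 61 genes.

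Netrin ligands did not pass, and 1 of 3 Unc5 receptors fell. Unc5b, a netrin receptor also known from blood vessels (chromosome 10, 60762593 to 60831581), had 13.1 CPM in the lowest ORX library, a median of 15.5 and 21.01 in ORX 3, against 22.8, 30.4, 18.9, 26.9 and 24.3 CPM in intact 1 to 5. ORX 3 lay above intact 3, and the groups were otherwise apart. Unc5b fell by 0.64 ± 0.17 on the log2 scale (edgeR, adjusted p = 0.043), a call that ended in 9 of 11 fits with 1 library left out, all but those without ORX 3 or intact 3 (edgeR, adjusted p 0.0616 to 0.104). It also ended with library totals as the scaling (edgeR, adjusted p = 0.062) and with the length trend removed (0.0909). Ntn1, the classical netrin, averaged 21.7 ± 8.90 CPM in ORX and 31.5 ± 8.58 CPM in intact, and Ntn4, a netrin of basement membranes, 15.5 ± 4.95 and 23.6 ± 8.82 CPM (edgeR, adjusted p = 0.239 and 0.257). Unc5a, the most abundant Unc5 receptor per kilobase, was at log2 0.13 ± 0.24 (edgeR, adjusted p = 0.782), and its exons overlap Hk3 on the other strand.

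The EphB receptors held both the largest rise and a fall. Ephb6 (chromosome 6, 41605482 to 41620509) had 18.1 CPM in ORX 3, a median of 36.2 and 49.8 in ORX 4, against 7.14, 7.56, 10.2, 13.1 and 7.65 CPM in intact 1 to 5. Every ORX library lay above every intact library, with ORX 3 nearest. The mean was 34.7 ± 10.4 CPM in ORX and 9.14 ± 2.54 CPM in intact, a log2 fold change of 1.92 ± 0.25 (edgeR, adjusted p = 0.000719), and it ranged from 1.78 to 2.07 when any 1 library was left out. Ephb6 made up 16.7% to 29.6% of the EphB level per kilobase in ORX libraries and 5.77% to 12.4% in intact libraries.

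Ephb2, a signalling-competent receptor of ephrin-B ligands (chromosome 4, 136647539 to 136835988), had 7.77 CPM in ORX 5, a median of 11.1 and 16.4 in ORX 3, against 28.2, 13.5, 19.2, 25.1 and 22.9 CPM in intact. ORX 3 lay above intact 2, and the groups were otherwise apart. Ephb2 fell by 0.91 ± 0.22 on the log2 scale (edgeR, adjusted p = 0.0284), a call that ended without ORX 1, ORX 2, ORX 5, intact 1 or intact 5 (edgeR, adjusted p 0.0553 to 0.0786). With the length trend removed it was at -0.53 (edgeR, adjusted p = 0.181). Its longest transcript, 10902 bases, is among the longest of the set. Ephb4, the venous receptor of ephrin B2 and the most abundant Eph receptor of the gland per kilobase, averaged 105 ± 14.5 CPM in ORX and 94.9 ± 17.6 CPM in intact (log2 0.14 ± 0.15; edgeR, adjusted p = 0.613).

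None of the 7 EphA receptors and 7 ephrins passed. Epha2, a receptor of ephrin-A ligands common in epithelia, averaged 28.2 ± 5.04 CPM in ORX and 40.2 ± 9.84 CPM in intact (log2 -0.51 ± 0.19; edgeR, adjusted p = 0.118). Epha1, which was near the count minimum, had 0.646 to 1.66 CPM in ORX libraries and 0.437 to 1.02 CPM in intact libraries (log2 1.01 ± 0.33; edgeR, adjusted p = 0.0852). It lies 738 kb from Ephb6 on chromosome 6, and its exons overlap those of Zyx on the other strand, so that reads of Zyx may be counted in it. Epha10 was at -0.25 ± 0.29 (edgeR, adjusted p = 0.65). Epha10 and Ephb4 also overlap exons on the other strand, of 1700125G02Rik and Zan. Of the ligands, Efnb1, the most abundant ephrin, averaged 91.3 ± 17.5 CPM in ORX and 109 ± 14.8 CPM in intact, and Efnb2, the arterial ephrin, 33.1 ± 14.8 and 43.4 ± 18.2 CPM (edgeR, adjusted p = 0.354 and 0.495). Efna1 and Efna5 were at log2 -0.13 ± 0.15 and 0.22 ± 0.21 (edgeR, adjusted p = 0.658 and 0.572).

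**Figure D3:**
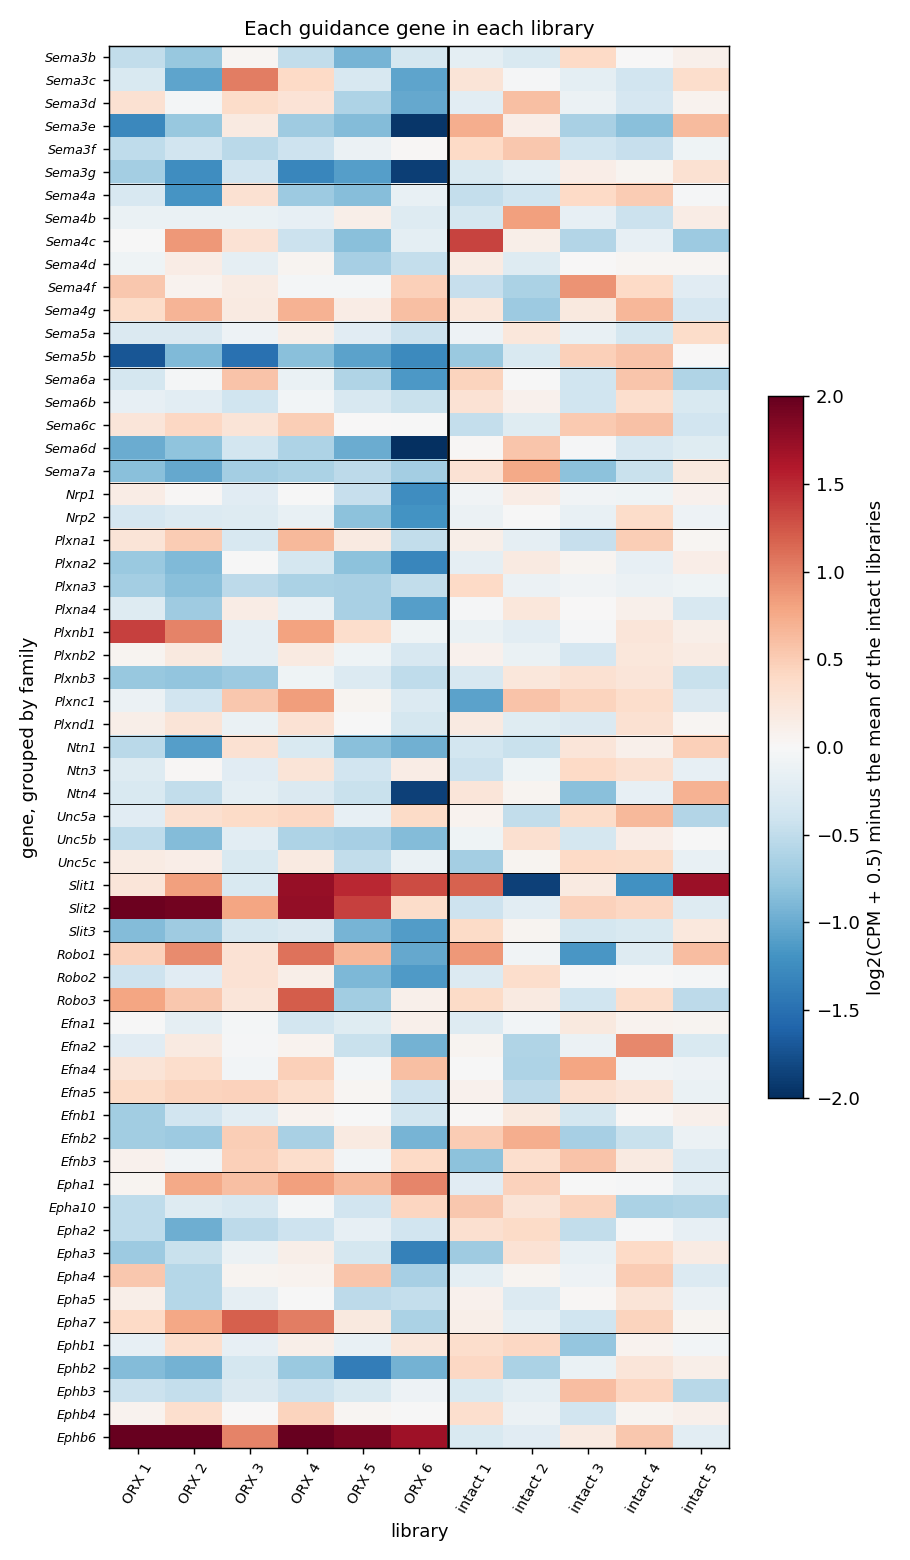
Each row is 1 guidance gene and each column 1 library, ORX left of the line and intact right of it; colour is log2(CPM + 0.5) minus the mean of the intact libraries, limited to 2 in each direction. Ephb6 is red in every ORX library, and Sema5b is blue in every ORX library. ORX 6 is the bluest ORX library in long genes such as Sema6d and Plxna2, but also in the shorter Ntn4 and Nrp1. In Plxna3, also long, ORX 6 is the least blue ORX library.

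In order of level per kilobase the set was led by receptors. Plxnd1 stood at 41.3 ± 6.83 CPM per kilobase in ORX and 40.5 ± 7.29 in intact, Nrp1 at 35.6 ± 10.4 and 41.8 ± 3.08, and Plxnb2 at 33.3 ± 4.68 and 34.0 ± 5.23. Efnb1, the leading ligand, stood at 28.04 ± 5.36 CPM per kilobase in ORX and 33.5 ± 4.56 in intact, and each of these 4 lay within the summed SDs of the next in both groups. Of the 61 genes 14 averaged over 10 CPM per kilobase and 18 under 1. Ephb6 stood at 9.23 ± 2.77 CPM per kilobase in ORX and 2.43 ± 0.675 in intact, and Slit2 at 2.62 ± 1.06 and 0.943 ± 0.285, which put them at ranks 20 and 38 of the 61 by level over all libraries.

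**Figure D4:**
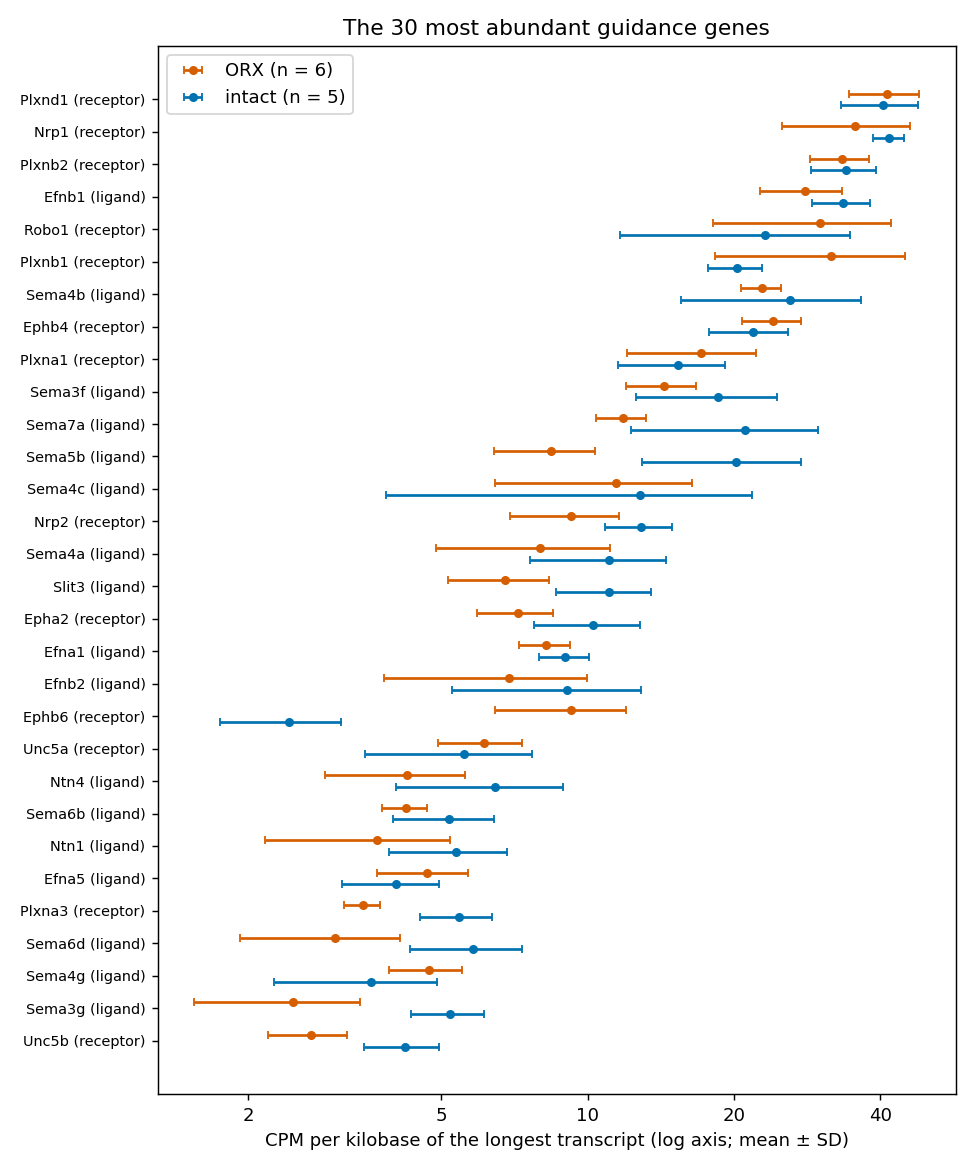
Mean CPM per kilobase of the longest transcript (horizontal log axis) with SD for the 30 most abundant guidance genes, ORX (orange, n = 6) above intact (blue, n = 5) in each row. Plxnd1 leads at 41.3 in ORX and 40.5 in intact, and the largest gap between the groups on the log axis, that is as a ratio, is that of Ephb6.

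The next values concern markers of the X-zone, a juvenile inner layer of the mouse cortex that males lose around puberty. Akr1c18, an X-zone enzyme gene, had 746 CPM in ORX 3, 821 in ORX 6, 1267 in ORX 2, 1400 in ORX 5, 1686 in ORX 4 and 2392 in ORX 1, against 0.662 to 6.12 CPM in intact libraries. All 3 X-zone markers of the list passed as higher. Summed, they reached 831 to 2911 CPM in ORX libraries and 28.7 to 40.2 CPM in intact libraries. ORX 3 and 6 were the lowest ORX libraries in this sum. They were also the lowest of ORX in Slit2 (16.0 and 11.8 CPM), in Ephb6 (18.1 and 30.01 CPM) and in Plxnb1 (153 and 163 CPM). The same held for Plxnd1 (252 and 216 CPM), Plxnb2 (192 and 174 CPM), Plxna1, Ephb4 and Robo1, none of which passed. In Plxna3, which fell, ORX 3 and 6 were the highest of ORX (25.7 and 26.4 CPM). Low values in these libraries were thus not limited to genes that rose. ORX 3 was also the highest ORX library in the summed markers of fat (12916 CPM, against 2747 to 7613 in the other ORX libraries), of capsule and fibroblasts (2126 CPM, against 1006 to 1625) and of pericytes and smooth muscle (438 CPM, against 228 to 296). ORX 6 was the library in which long transcripts were low, with a median deviation of -0.56 (log2 CPM) for the longest. The longest transcripts of Slit2 and Plxnb1 have 9960 and 8649 bases, and that of Ephb6 has 3762. The part of X-zone cells or of these other cells in the results was not tested. Nor was the part of transcript length in these low values of ORX 6.

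**Figure D5:**
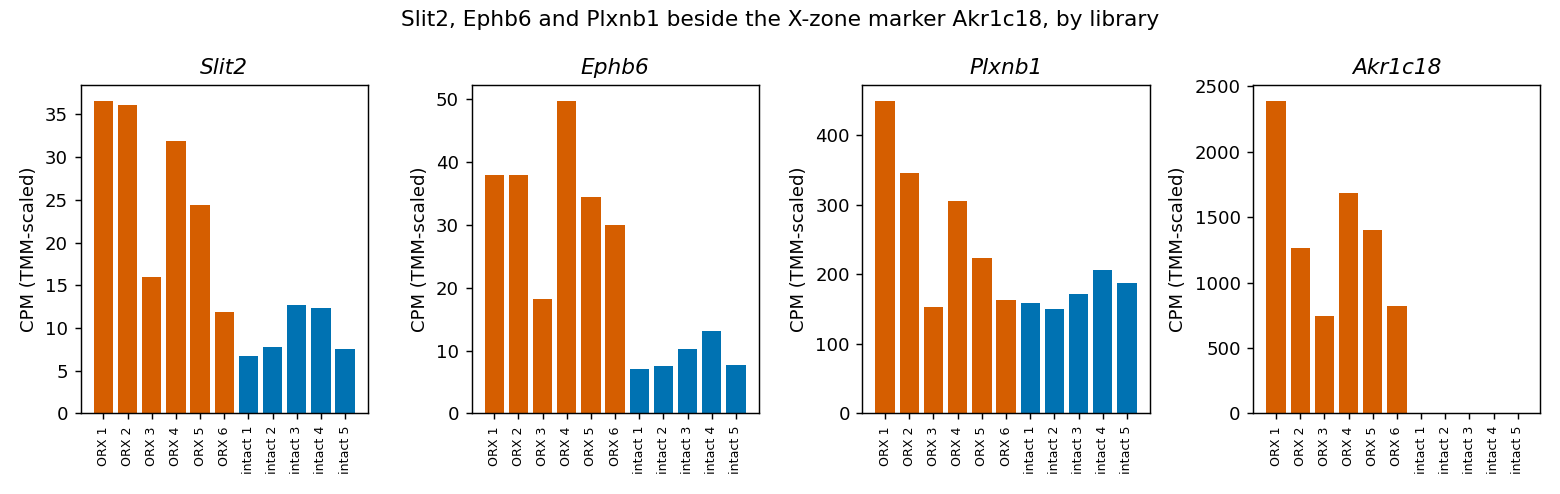
CPM (vertical axes from 0) of Slit2, Ephb6, Plxnb1 and the X-zone marker Akr1c18 in each ORX (orange) and intact (blue) library. ORX 3 and ORX 6 are the lowest ORX libraries in all 4 panels. They are also the lowest in Plxnd1 and Plxnb2, which did not pass and are not drawn.

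Marker lists of other cell types lay mostly below 0, beside the guidance genes that fell. Of 24 chromaffin cell genes 4 fell and none rose, with sums of 8075 to 19225 CPM in ORX libraries and 14251 to 33589 CPM in intact libraries. Of 9 tested neuronal genes 3 fell, with sums of 109 to 257 CPM in ORX libraries and 171 to 253 CPM in intact libraries. Of 11 glial genes 1 fell (75.2 to 90.2 CPM in ORX, 74.5 to 111 CPM in intact), and of 13 endothelial genes 1 fell (1028 to 1245 CPM in ORX, 1119 to 1631 CPM in intact). Of 10 pericyte and smooth muscle genes 1 fell and 9 were below 0, with sums of 228 to 438 CPM in ORX libraries and 432 to 608 CPM in intact libraries. Of 13 capsule and fibroblast genes none passed (1006 to 2126 CPM in ORX, 1409 to 1958 CPM in intact). Of 10 zona glomerulosa genes 5 fell (3547 to 3969 CPM in ORX, 3032 to 5305 CPM in intact), and of 9 zona fasciculata genes 4 rose. None of 9 macrophage genes (294 to 522 CPM in ORX, 249 to 543 CPM in intact) or 8 fat genes (2747 to 12916 CPM in ORX, 4455 to 11704 CPM in intact) passed. No marker outside the kidney list was at 0 in all libraries, and the part of any of these cells in the falls of guidance genes was not tested.

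Beyond the ligand and receptor families, 61 co-receptor and signalling genes of the same pathways were listed, of which 56 were tested, 1 rose, 3 fell and 52 did not pass, a share called close to the 6.21% of all tested genes. Their median log2 fold change was -0.18. Pak3, a kinase that links Rac and Cdc42 to the cytoskeleton, had 15.7 CPM in ORX 1, 34.9 in the highest ORX library, ORX 3, and 96.1, 132, 47.7, 67.4 and 129 CPM in intact 1 to 5, without overlap. It fell by 1.96 ± 0.27 on the log2 scale (edgeR, adjusted p = 0.00115). Chn2, a chimaerin that inactivates Rac, fell by 0.89 ± 0.18 (edgeR, adjusted p = 0.0116), also without overlap, with 16.6 ± 2.08 CPM in ORX and 30.8 ± 7.68 CPM in intact. The kinase gene Abl2 fell by 0.63 ± 0.17 (edgeR, adjusted p = 0.0385). Gpc1, a heparan sulfate proteoglycan that binds Slits, rose by 0.57 ± 0.13 (edgeR, adjusted p = 0.0261), with 62.4 ± 8.61 CPM in ORX and 42.1 ± 4.24 CPM in intact. Both of these calls were lost in several fits with 1 library left out. Gpc1 did not pass without any 1 of ORX 2, 4 and 5 and intact 1, 2 and 5 (edgeR, adjusted p 0.0511 to 0.0691). Abl2 did not pass without any 1 of ORX 2 to 6 or of intact 1, 2 and 5 (edgeR, adjusted p 0.0524 to 0.09), and with the length trend removed it was at -0.27 (edgeR, adjusted p = 0.435). No gene of the netrin co-receptor list (10 tested) or of the semaphorin signalling list (21 tested) passed, and Dpysl3, a collapsin response mediator, came nearest at log2 -1.47 ± 0.43 (edgeR, adjusted p = 0.0605).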

How the data were processed

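RNA from 11 adrenal samples, 6 ORX and 5 intact, was sequenced, starting from 300 ng each. Per the labels' protocols, libraries followed Illumina TruSeq guides, of which both a stranded and an unstranded one are named. The authors deposited raw, unnormalized counts of reads by gene symbol. The table repeats itself in 2 identical blocks, and only the upper one was read. Per the submitters' processing notes, bcl2fastq 1.8.4, Subread 1.5.1 and build mm10 were used, without their roles. The annotation and the strand setting were not stated in the labels or notes used here. None of the 8 called genes shares exon sequence with another GENCODE gene, and 12 of the 61 guidance genes overlap exons on the opposite strand.

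Genes were kept by filterByExpr (minimum count 10, minimum total 15), normalized by TMM and fitted in edgeR 4.0.16 in R 4.3.3 (quasi-likelihood, ORX against intact, no covariate, two-sided, Benjamini-Hochberg adjustment over 14139 genes at 0.05). The fit and threshold were tested on simulated data of genes that had passed the filter, without a transcript length trend. The filter itself was not tested. An SE is the absolute log2 fold change over the square root of F. Alternatives were other scalings, filters and tests (DESeq2 1.42.0, limma 3.58.1 voom), a sample-number block, a loess trend on transcript length removed per library, and libraries left out. Positions and lengths are of GENCODE M21 (GRCm38, also called mm10), and per-kilobase levels use the longest transcript. The depth, 11368447 to 15029582 counts, limits precision for genes near 10 counts.

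Genes named were those past the threshold, the 2 most abundant per kilobase in each family, the 5 with the smallest p among the rest, and up to 8 pathway genes past the threshold. Plxnb1, Dpysl3 and other genes given to complete a family were chosen after their values were seen. The guidance genes and all lists were chosen with earlier results of these data known.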

Additional observations from a re-analysis of the deposited data

Results flagged for a closer look

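Of 68 sets of values (34 named genes in 2 groups), 6 had a lowest or highest library that stood apart from the rest of its group, where about 3.4 are expected by chance. Ntn4 was at 5.73 CPM in ORX 6, against 15.7 to 19.3 CPM in the other ORX libraries. Sema4b was at 106 CPM in ORX 5, against 81.1 to 89.0 CPM in the other ORX libraries. Plxna3, one of the genes that fell, was at 49.2 CPM in intact 1, against 34.3 to 35.6 CPM in the other intact libraries, and its call held without intact 1 (edgeR, adjusted p = 0.0416). Nrp2 was at 110 CPM in intact 4, against 77.6 to 85.6 CPM in the others. Epha1 was at 1.02 CPM in intact 2, against 0.437 to 0.596 CPM. Gpc1 was at 34.8 CPM in intact 3, against 42.2 to 45.0 CPM.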

How the results depend on the processing

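Ephb6 and Sema5b kept their direction and their call in all 21 alternatives, Ephb6 between 1.78 and 2.10 and Sema5b between -1.42 and -1.002 on the log2 scale. No called gene changed direction. Plxna3 was lost only with the length trend removed and with the sample-number block. Leaving out 1 library gave 408 to 1280 changed genes in all, 1 to 2 guidance genes higher and 2 to 9 lower, and 0 to 1 pathway genes higher and 2 to 4 lower. DESeq2 called 1630 genes, with 5 pathway genes lower. Limma voom with sample weights called 2056 genes, with 4 guidance genes higher and 10 lower, and 2 pathway genes higher and 8 lower. With the length trend removed 2 pathway genes were higher, and without intact 3 and ORX 6 together 6 were lower. Of genes without a call, Plxnb2 (-0.03 in the fit reported) was above 0 with library totals (0.021), limma voom (0.0056), the block (0.033) and the length trend removed (0.18), and spanned -0.12 to 0.027 over the fits without 1 library. Plxnd1 then lay between -0.053 and 0.10 and Sema4b between -0.31 and 0.076. The cause of these changes was not tested.

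The labels number the samples in both groups without saying that a number links 2 animals. Correlations of deviations between same-numbered samples ran from -0.28 to 0.18. For ORX 4 and 5 the same-numbered intact library was the best correlated (0.18 each), and for ORX 1, 2 and 3 another one was. Whether a number links animals is therefore not settled. With the sample number as a replicate block 416 genes were called, 2 guidance genes higher and 1 lower, no pathway gene higher and 1 lower, and ORX 6 had no partner. Epha1, with 6 to 22 counts a library, passed under limma voom (adjusted p = 0.04) and in none of the other alternatives.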

Other observations

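Of the 7 genes that matched by name but missed the count minimum, Epha8, an EphA receptor, lay just below it. It reached 10 counts in 3 libraries, with 21, 25, 6, 18, 8 and 9 counts in ORX 1 to 6 and 1, 1, 3, 7 and 4 counts in intact 1 to 5. Sema3a reached 10 counts in 4 libraries, with 2 to 14 counts in ORX libraries and 4 to 15 in intact libraries. Just inside the minimum, Sema3e had 0 to 23 counts in ORX libraries and 7 to 37 in intact libraries, and Epha1 had 9 to 22 counts in ORX libraries and 6 to 12 in intact libraries.

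Some guidance genes varied widely within a group. Sema4c, a transmembrane ligand of plexin B2, had 23.9 to 78.6 CPM in ORX libraries and 25.8 to 110 CPM in intact libraries, with ORX 2 and intact 1 highest. Sema3c, a secreted semaphorin, had 21.3 CPM in ORX 3 and 4.67 to 13.7 CPM in the other ORX libraries, against 7.78 to 13.2 CPM in intact libraries. Efnb2 had 57.3 CPM in ORX 3 and 20.9 to 45.6 CPM in the other ORX libraries, against 25.2 to 67.3 CPM in intact libraries.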
